A study of Mus musculus with 9 samples.

Results

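The 38 genes described here are immediate early and early stress genes of the mouse, taken by symbol from a table of RNA levels. All 38 symbols were found among the 30579 genes of the table, and they are followed over its 9 libraries and 3 groups. The libraries came from mesenchymal stromal cells of the bone marrow, the fibroblast-like cells that support blood formation, sorted by flow cytometry from long bones. Of the 38 genes, 37 reached at least 1 FPKM (fragments scaled by transcript length and by the size of the library) in at least 3 libraries, and these were tested among 11988 genes. The gene left out was Dusp2, which was listed at 0.25 to 1.11 FPKM.

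The 3 groups held 3 libraries each. Young control mice were 3 months old, aged control mice were 18 months old, and so were the mice labelled aged Thbs1 knockout. The gene named there encodes thrombospondin-1, which cells secrete into the extracellular matrix. The labels give no strain, sex, allele or driver for the knockout, and leave unsaid whether each library is a mouse of its own. The p-values therefore measure spread among these libraries, which may be technical. Every mouse, controls included, had been given a VE-cadherin antibody, which binds endothelium, retro-orbitally 10 minutes before death. The cells were sorted into TRIzol-LS, and 2 ng of total RNA went into each SMART-Seq v4 library. In bulk libraries of this kind, fewer cells of a type and less RNA per cell cannot be told apart.

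Immediate early genes are transcribed within minutes of a signal, from promoters already loaded with their activators, and need no new protein to be made. Growth factors, stretch and stress act through the MAP kinases on serum response factor (SRF), which binds the CArG box, and on CREB, which binds the cyclic AMP response element (CRE). The first products, among them Fos, Jun and Egr1, are transcription factors. Others are brakes on the same pathways: the Dusp phosphatases inactivate MAP kinases, Socs3 inhibits cytokine receptors, and Zfp36 destroys RNAs with AU-rich elements, which keeps many of these transcripts short-lived. In bone and marrow stroma, AP-1 factors are known for their part in osteoblast and osteoclast formation. The same genes are known to be induced when solid tissues are dissociated into single cells.

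Promoter sequences in RefSeq (build GRCm38.p6) were matched for 31 of the 38 genes, and the 250 bases before each start were searched on both strands. No sequence was matched for Fosl1, Egr1, Egr3, Ier2, Klf10, Myc or Arc. CArG boxes were found at 3 genes (9.68% of 31), and at 1.62% of the 27025 genes with a promoter in RefSeq. These 3 are shown first, in order of the direction of the gene, with the box in capitals. Dusp5 held 2 boxes in a row, and the same stretch of Egr2 falls before 3 of its annotated starts.
Egr2, chr10:67537782-67537821, forward strand: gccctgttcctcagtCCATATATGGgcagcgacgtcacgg
Dusp5, chr19:53529048-53529097, forward strand: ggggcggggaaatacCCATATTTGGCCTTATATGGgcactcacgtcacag
Zfp36, chr7:28379262-28379301, reverse strand: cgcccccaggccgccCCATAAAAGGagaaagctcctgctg
The full CRE, TGACGTCA, stood before 4 genes (12.9%), against 1.77% of all genes and 2.97% of the 9184 tested genes with a promoter. Its half-site TGACG, which the full CRE also contains, stood before 16 genes (51.6%), against 19.8% and 30.7%. The 4 full elements are shown in capitals.
Maff, chr15:79347476-79347513, forward strand: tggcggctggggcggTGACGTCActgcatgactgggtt
Dusp1, chr17:26508593-26508630, reverse strand: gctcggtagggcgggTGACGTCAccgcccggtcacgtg
Btg2, chr1:134079299-134079336, reverse strand: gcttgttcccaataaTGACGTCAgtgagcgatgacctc
Ppp1r15a, chr7:45526269-45526295, reverse strand: accccgcctctccggTGACGTCAgcac
The Egr motif GCGNGGGCG stood before 12 genes (38.7%), against 5.33% of all genes and 10.7% of those tested. The AP-1 motif TGANTCA stood before 1 gene, Csrnp1 (3.23%, against 7.82% and 5.19%), and the STAT motif TTCNNNGAA before 2 (6.45%, against 8.13% and 6.94%). TATAAA stood before 4 (12.9%), between the 14.3% of all genes and the 7.73% of those tested. A match is a description of the letters and not a bound site.
Atf3, Socs3 and Gadd45b are the called genes whose own promoters are shown next. The capitals mark a CRE half-site on the opposite strand in Atf3, the STAT motif in Socs3, and TATAAA followed by an Egr motif on the opposite strand in Gadd45b. The Atf3 stretch ends at a start that lies within the longer GENCODE gene.
Atf3, chr1:191183334-191183393, reverse strand: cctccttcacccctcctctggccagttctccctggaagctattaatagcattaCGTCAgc
Socs3, chr11:117969497-117969536, reverse strand: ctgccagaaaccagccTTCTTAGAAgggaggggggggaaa
Gadd45b, chr10:80930031-80930080, forward strand: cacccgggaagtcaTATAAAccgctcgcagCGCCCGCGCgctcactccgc

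Short genes, and to a lesser extent an AU-rich decay element, were more frequent in the set than among all tested genes, and the choice by name used neither. In GENCODE M21, the median span of the 37 tested genes was 4984 bases with 4 exons in the longest transcript, against 23379.5 bases and 9 exons over 10958 tested protein-coding genes. Spans under 5 kb were found for 19 genes (51.4%), against 11.5%, and the longest span was 56539 bases. The decay element TTATTTATT lay in the 3′ untranslated region of 8 of 37 genes (21.6%), against 6.92% of 10949 tested genes and 5.99% of the 3020 whose region has a length between the quartiles of these 37. These 8 were Fos, Fosl2, Dusp1, Zfp36, Maff, Ppp1r15a, Csrnp1 and Ptgs2. Sites from the highest gene, from the gene for the decay factor itself and from Ptgs2 are shown, each as 27 bases with the element in capitals.
Fos, chr12:85477104-85477130, forward strand: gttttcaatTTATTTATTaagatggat
Zfp36, chr7:28376952-28376978, reverse strand: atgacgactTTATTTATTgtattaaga
Ptgs2, chr1:150105791-150105817, forward strand: tgaccatatTTATTTATTtatgtgaag
The Ptgs2 element began at base 18 of a 3′ untranslated region of 2445 bases, and that of Fos at base 655 of 815.

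Several facts of the libraries bear on these genes. The spacing of low FPKM values corresponds to 17.6 to 27.6 M reads (M, mega) a library, and 13503 to 18382 genes were above 0. Replicate 2 of the labelled-knockout libraries stood apart, with Pearson correlations of 0.738 to 0.811 with every other library across genes. Thbs1 itself stood at 74.98, 73.11 and 58.03 FPKM in young controls, 35.56, 41.89 and 36.85 in aged controls. Libraries with the knockout label had 24.28, 44.55 and 37.05. The difference of the last group from aged controls did not pass (log2 fold change −0.15, limma adjusted p = 0.801), and a two-sided exact permutation test gave p = 0.9 (0.1 is the lowest it can give). Because the RNA does not separate these groups, the third group is called the labelled-knockout libraries below. All 10 marrow stromal markers, among them Cxcl12, Kitl and Lepr, were at 1 FPKM or more in every library. Immunoglobulin genes took 0.0038% to 0.17% of reads in young controls, 21.6%, 4.27% and 31.9% in the 3 aged controls, and then 0.16%, 19.2% and 2.36% in the labelled-knockout libraries.

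The set held some of the most abundant RNAs of the table. Between 8 and 11 of the 38 genes were among the 100 highest genes of each library. Fos, the partner that with Jun forms the classic AP-1 dimer, was the highest of the 38 in all 9 libraries and ranked from 2 to 18 in the whole table. In young controls Fos stood at 4379 ± 196 FPKM (mean ± SD, n = 3, as for all means below) and made up 26.5% of the summed FPKM of the set. Zfp36, Egr1, Dusp1, Jun, Jund and Junb followed at 1119.7 to 1444 FPKM, and the range of each overlapped that of its neighbour in this order. In aged controls the share of Fos was 18.3%, and Zfp36, Jund, Jun, Junb, Dusp1 and Egr1 followed at 1069 to 1599 FPKM. The low end was also much the same in the groups: Egr3, Nr4a3 and Dusp2 were at 6.94 FPKM or less in every library. Fosl1 and Ptgs2 ranked 37 and 36 of 38 in young controls and in labelled-knockout libraries, but were at 23.0 and 55.4 FPKM in aged controls.

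Setting aged beside young controls asks what differed with age. Setting the labelled-knockout libraries beside aged controls asks what differed with the labelled genotype at 1 age. Both use the same 3 aged control libraries, so that their fold changes are not independent of each other. With age, 6 genes fell: Atf3, Egr2, Socs3, Myc, Gadd45b and Gadd45g. These are 6 of 37, beside 1.47% of all tested genes. A single gene rose, Ptgs2, beside 2.57% of all tested genes. In labelled-knockout libraries against aged controls, 6 genes were higher, Atf3, Egr2, Klf2, Klf4, Socs3 and Gadd45b, beside 1.52% of all tested genes. A single gene was lower, again Ptgs2, beside 1.96%. All calls are limma tests on log2(FPKM + 1) at a Benjamini-Hochberg adjusted p under 0.05 over 11988 genes.

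The median of the set lay close to that of the whole table with age, and above it against aged controls. The median log2 fold change with age was −0.23 over the 37 genes and −0.28 over all tested genes, and 25 of the 37 were negative. Labelled-knockout libraries against aged controls gave 0.26 over the 37 genes and 0.07 over all, and 24 were positive. Aged libraries lay wholly below young libraries for 13 of the 37 genes, beside 37.4% of all tested genes, and wholly above for 4, beside 7.02%. Labelled-knockout libraries lay wholly above aged libraries for 13 genes, beside 16.6%, and wholly below for 2, beside 6.54%. FPKM is relative to the total of each library, so the values were also rescaled by median ratios, which moved the median of all genes with age from −0.28 to 0.00579. On that scale 3 genes rose with age (Dusp5, Csrnp1 and Ptgs2), beside 3.00% of all tested genes, and 4 fell (Atf3, Egr2, Myc and Gadd45g), beside 0.552%. The median of the 37 was then 0.12. Against aged controls, the rescaled labelled-knockout libraries were higher for Atf3, Egr2, Socs3, Myc and Gadd45b, beside 1.47% of all tested genes, and lower for Ptgs2, beside 2.90%.

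**Figure D1:**
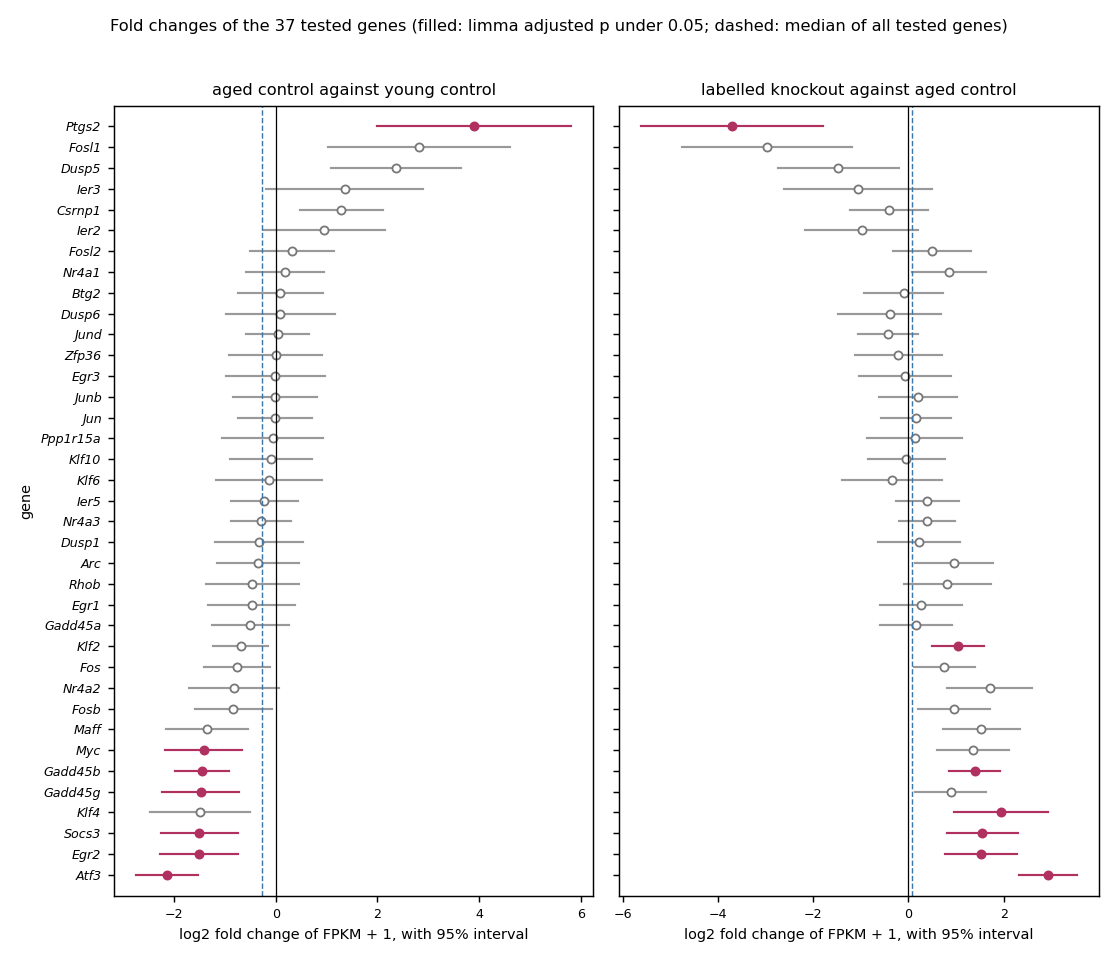
Log2 fold change of FPKM + 1 (horizontal axis) for the 37 tested genes, ordered by their change with age, with 95% intervals; left, aged against young controls, right, labelled-knockout libraries against aged controls. Filled points passed at an adjusted p under 0.05, 7 in each panel, and the dashed line is the median of all tested genes (−0.28 and 0.07). The 2 panels share the aged controls.

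Of the AP-1 family and its relatives, Atf3 carried the change. Atf3, a bZIP factor induced by stress that can pair with Jun, stood at 142, 93.2 and 86.2 FPKM in young controls, 21.8, 25.8 and 21.2 in aged controls and 167, 148 and 236 in labelled-knockout libraries. The 3 aged libraries were tightly grouped and below every other library. Young controls had 4.67 times the aged mean, and labelled-knockout libraries 8.02 times. The log2 fold change of Atf3 with age was −2.14 (SE 0.27, 95% interval −2.75 to −1.54, limma adjusted p = 0.00763). Labelled-knockout libraries had a log2 fold change of 2.93 (SE 0.27, limma adjusted p = 0.00191) against aged controls. The fall with age passed in 19 of 20 alternatives and was lost without aged control replicate 1 (limma adjusted p = 0.0797). The difference between labelled-knockout and aged libraries passed in all 20.

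Fos and Fosb shared this order of groups with smaller differences that did not pass. Fos had 4532, 4157 and 4447 FPKM in young controls, 2258, 3107 and 2423 in aged controls and 5384, 3744 and 4059 in labelled-knockout libraries. Every aged library was below every other library. The tests gave a log2 fold change of −0.77 (SE 0.29, limma adjusted p = 0.163) with age and a log2 fold change of 0.76 (SE 0.29, limma adjusted p = 0.188) in labelled-knockout against aged libraries. Fosb, a close relative of Fos, gave a log2 fold change of −0.83 (SE 0.34, limma adjusted p = 0.193) and a log2 fold change of 0.96 (SE 0.34, limma adjusted p = 0.159), from means of 278 ± 50.8, 159 ± 48.3 and 316 ± 121 FPKM. Maff, a small Maf protein without a transactivation domain, was also lowest in the 3 aged libraries, at 5.76, 7.60 and 3.35 FPKM against 13.4 to 18.8 in young controls and 11.3 to 27.5 in labelled-knockout libraries. Maff had a log2 fold change of −1.35 (SE 0.36, limma adjusted p = 0.0719) with age and a log2 fold change of 1.53 (SE 0.36, limma adjusted p = 0.0534) in labelled-knockout against aged libraries.

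The Jun partners did not follow Fos. Jun had 1341, 1254 and 954 FPKM in young controls, 1243, 1572 and 793 in aged controls and 1558, 1301 and 1064 in labelled-knockout libraries. The 3 ranges overlapped. Jun had a log2 fold change of −0.017 (SE 0.33, limma adjusted p = 0.984) with age, with a 95% interval of −0.75 to 0.72, and a log2 fold change of 0.16 (SE 0.33, limma adjusted p = 0.832) against aged controls, with an interval of −0.57 to 0.89. Its sign turned in some alternatives. Junb and Jund, 2 further Jun proteins, had overlapping ranges too, with aged means of 1196 ± 566 and 1205 ± 231 FPKM against 1119.7 ± 181 and 1159 ± 121 in young controls. Jun, Junb and Jund each share exon bases with a gene on the other strand (232 bases with Junos, 173 with Prdx2 and 877 with Gm11175), and the strand used in counting is not given in the sources used here. Fosl2 stood at 3.44 to 13.1 FPKM in all 9 libraries with none of its differences passing, and Fosl1 is described with Ptgs2 below.

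**Figure D2:**
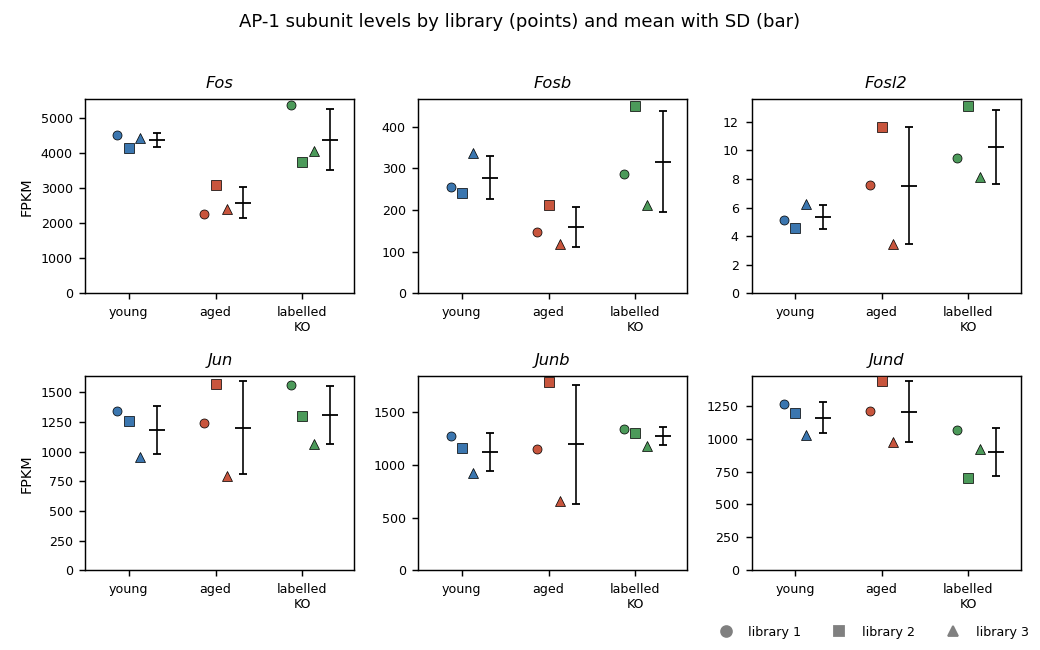
FPKM (vertical axes, from 0) of 6 AP-1 subunits in 3 groups of 3 libraries; marker shape gives the replicate number, and the bar gives mean ± SD. Fos and Fosb are lowest in the 3 aged libraries, while the groups overlap for Jun, Junb and Jund.

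Among the zinc finger factors, Egr2 fell with age, and Egr2, Klf2 and Klf4 were higher in labelled-knockout than in aged libraries. Egr2, a factor known from myelin and bone, had 66.3, 55.6 and 50.3 FPKM in young controls, 14.2, 27.7 and 18.6 in aged controls and 61.1, 37.3 and 84.4 in labelled-knockout libraries. The aged libraries were all below the rest. The log2 fold change of Egr2 with age was −1.50 (SE 0.34, 95% interval −2.27 to −0.74, limma adjusted p = 0.0438). In labelled-knockout libraries Egr2 had a log2 fold change of 1.52 (SE 0.34, limma adjusted p = 0.0463) against aged controls. The fall with age held without labelled-knockout replicates 2 or 3 and was lost without any other single library (limma adjusted p of 0.0553 to 0.271). Klf2, a factor known for quiescence and for its response to flow, was at 267, 231 and 255 FPKM, 152, 194 and 126 and 343, 356 and 272 in the same order of groups. The 3 groups did not overlap, with aged controls lowest and labelled-knockout libraries highest. Klf2 had a log2 fold change of −0.69 (SE 0.24, limma adjusted p = 0.14) with age and a log2 fold change of 1.05 (SE 0.24, limma adjusted p = 0.0496) against aged controls.

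Klf4, one of the reprogramming factors, had 24.1, 21.8 and 51.5 FPKM in young controls, 9.39, 11.1 and 9.95 in aged controls and 25.7, 79.8 and 35.8 in labelled-knockout libraries. The aged libraries were narrow and lowest, while the labelled-knockout mean owed much to replicate 2. Klf4 gave a log2 fold change of −1.48 (SE 0.44, limma adjusted p = 0.097) with age and a log2 fold change of 1.95 (SE 0.44, limma adjusted p = 0.0471) against aged controls. Without labelled-knockout replicate 2, the library that stood apart, Egr2, Klf2 and Klf4 all passed in both comparisons (Klf4 against aged controls, limma adjusted p = 0.0239). In that fit 17.9% of all tested genes were lower with age and 11.5% were higher against aged controls. Leaving out any other single library lost the calls of Klf2 and Klf4 against aged controls (limma adjusted p of 0.0583 to 0.253), as it did that of Egr2 (0.0804 to 0.254).

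Egr1, the best known serum-induced member of its family, did not follow Egr2. It had 1743, 1412 and 1171 FPKM in young controls, 1027, 1455 and 724 in aged controls and 1605, 780.0 and 1493 in labelled-knockout libraries. The ranges overlapped, and Egr1 had a log2 fold change of −0.47 (SE 0.38, limma adjusted p = 0.506) with age and a log2 fold change of 0.26 (SE 0.38, limma adjusted p = 0.753) against aged controls. Egr3 (1.26 to 6.94 FPKM over all libraries), Klf6 (87.3 to 343) and Klf10 (16.4 to 48.3) had overlapping groups in both comparisons and did not pass.

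Of the other transcription factors, Myc fell with age. Myc, the driver of growth and ribosome synthesis, had 137, 119.5 and 102 FPKM in young controls, 36.4, 57.4 and 40.3 in aged controls and 167, 70.3 and 125 in labelled-knockout libraries. The aged libraries were lowest without overlap. Myc gave a log2 fold change of −1.42 (SE 0.33, limma adjusted p = 0.04997) with age, close to the threshold, and a log2 fold change of 1.35 (SE 0.33, limma adjusted p = 0.0637) against aged controls. The fall held without labelled-knockout replicates 1 or 2 and was lost without any other single library (limma adjusted p of 0.0716 to 0.281). Nr4a2, an orphan nuclear receptor, had aged levels of 1.12, 1.43 and 1.34 FPKM, below its 1.96 to 4.20 in young controls and 3.03 to 11.3 in labelled-knockout libraries. Its difference from aged controls missed the threshold narrowly (log2 fold change 1.70, SE 0.39, limma adjusted p = 0.0501). Csrnp1, a factor known for induction by axin and by TGF-beta, went the other way with age, from 27.3, 17.7 and 11.1 to 49.2, 62.4 and 28.7 FPKM without overlap, and did not pass (log2 fold change 1.29, SE 0.36, limma adjusted p = 0.0832). Nr4a1 stood at 173 ± 38.4, 203 ± 84.3 and 357 ± 100.3 FPKM and Nr4a3 at 3.07 FPKM or less everywhere. Neither passed.

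Among the feedback inhibitors, Socs3 fell with age and was higher in labelled-knockout libraries. Socs3, which blocks signalling from the gp130 cytokine receptors, had 1116, 1041 and 685 FPKM in young controls, 234, 448 and 332 in aged controls and 1238, 800.3 and 891 in labelled-knockout libraries. All aged libraries were below all others. The log2 fold change of Socs3 with age was −1.50 (SE 0.33, 95% interval −2.25 to −0.75, limma adjusted p = 0.0419). Against aged controls, labelled-knockout libraries had a log2 fold change of 1.55 (SE 0.33, limma adjusted p = 0.0412). The first call held without labelled-knockout replicates 1 or 2 and was lost without any other single library (limma adjusted p of 0.0530 to 0.252). The second held only without labelled-knockout replicate 2 (0.0177) and was lost without each of the others (0.0599 to 0.239). The MAP kinase phosphatases Dusp1 (644 to 1571 FPKM over all libraries) and Dusp6 (22.6 to 104) and the RNA decay factor Zfp36 (776 to 2439.8) overlapped between groups. For Zfp36 the log2 fold change with age had a 95% interval of −0.91 to 0.92. Dusp5, a nuclear phosphatase of ERK, is described with Ptgs2.

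Of the growth arrest and stress recovery genes, Gadd45b and Gadd45g fell with age, and Gadd45b was higher in labelled-knockout libraries. Gadd45b, an activator of stress kinases, had 191, 179 and 209 FPKM in young controls, 51.9, 79.8 and 83.5 in aged controls and 183, 178 and 198 in labelled-knockout libraries. The young and labelled-knockout libraries shared 1 narrow range above the aged libraries. The log2 fold change of Gadd45b with age was −1.45 (SE 0.24, 95% interval −1.98 to −0.91, limma adjusted p = 0.0178). Against aged controls it had a log2 fold change of 1.39 (SE 0.24, limma adjusted p = 0.0239). The fall was lost without any single young library or aged control replicate 1 (limma adjusted p of 0.0843 to 0.121). The second call held without young control replicate 3, aged control replicate 3 or labelled-knockout replicate 2, and was lost without each of the others (0.0539 to 0.155). Gadd45g had 714, 653 and 668 FPKM in young controls, 208, 306 and 225 in aged controls and 615, 272 and 541 in labelled-knockout libraries. Replicate 2 of the last group lay within the aged range. Gadd45g gave a log2 fold change of −1.48 (SE 0.33, limma adjusted p = 0.0435) with age and a log2 fold change of 0.88 (SE 0.33, limma adjusted p = 0.184) against aged controls. The fall held without labelled-knockout replicates 1 or 2 and was lost without any other single library (limma adjusted p of 0.0616 to 0.261). Without labelled-knockout replicate 2 the second difference passed as well, beside 11.5% of all tested genes called higher in that fit. Gadd45a (19.9 to 52.4 FPKM), Btg2 (148 to 384) and Ppp1r15a, the phosphatase subunit that ends the integrated stress response (73.1 to 206), had overlapping groups and did not pass.

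**Figure D3:**
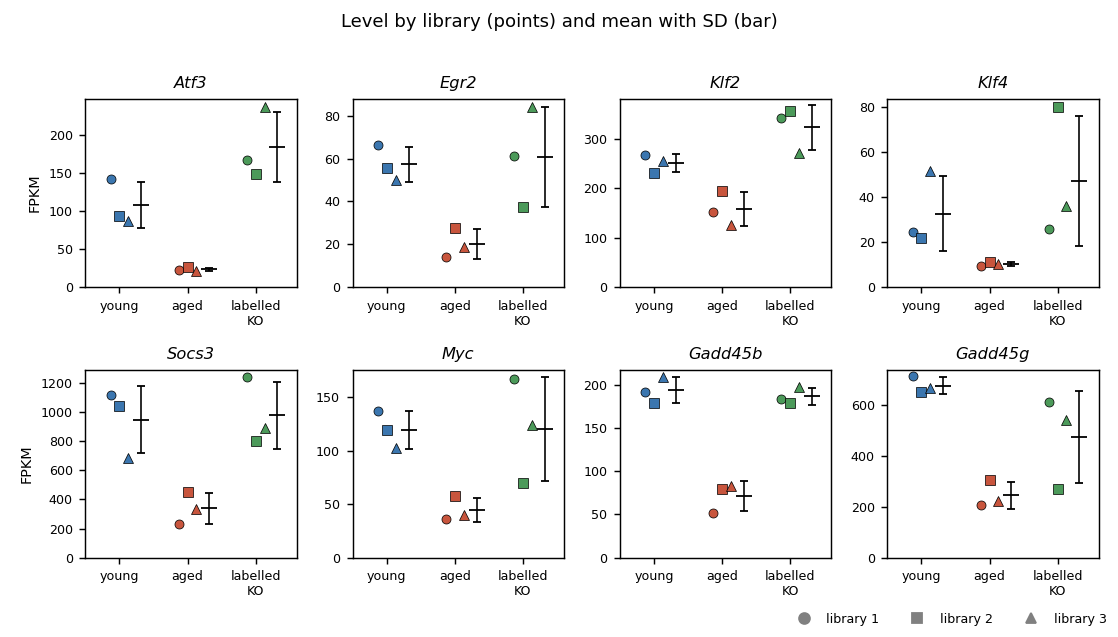
FPKM (vertical axes, from 0) of the 8 genes that fell with age, or were higher in labelled-knockout than in aged libraries, at an adjusted p under 0.05; marker shape gives the replicate number, and the bar gives mean ± SD of 3 libraries. The aged libraries are below all young libraries for all 8 genes, and below all labelled-knockout libraries for all but Gadd45g. The 8 genes were chosen by tests of these same libraries, so this separation is no further support. Over all tested genes, 37.4% had aged libraries wholly below young ones, and 16.6% had labelled-knockout libraries wholly above aged ones.

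Most of these calls changed when 1 library was left out. Without any single young library, Atf3 was the only one of the 6 that still fell with age. Without young replicates 1, 2 and 3, only 0.0337%, 0.0591% and 0.0169% of all tested genes fell. Without aged control replicate 1 all 6 were lost, and 0 of 11712 tested genes fell. Without aged control replicates 2 or 3, Atf3 and Gadd45b still fell and the other 4 were lost, beside 0.604% and 0.340% of all tested genes that fell. Without labelled-knockout replicate 2, which enters this comparison only through the shared spread, 10 genes fell, beside 17.9% of all tested genes, and 4 rose, beside 5.17%. The sums of some cell type marker lists also differed between these groups. Sums of B lineage, neutrophil, erythroid and megakaryocyte markers overlapped between young and aged controls. The summed FPKM of 8 osteoblast markers was 9206 to 11979 in young controls, 1851 to 2926 in aged controls and 6035, 2569 and 10371 in labelled-knockout libraries. That of 9 chondrocyte markers was 145 to 362, 41.7 to 64.2 and 1238, 176 and 3361. That of 10 marrow stromal markers was 8555 to 9661, 4299 to 6259 and 6617 to 9096. That of 11 pan-leukocyte markers was 57.05 to 99.75, 606 to 1379 and 64.1, 659.7 and 146, and without Cd52, the most abundant of them in labelled-knockout replicate 2, it was 56.02 to 93.3, 189 to 1159 and 62.2, 115 and 69.1. The part of these cells in the lower levels of Atf3, Egr2, Socs3, Myc and the Gadd45 genes was not tested. In labelled-knockout replicate 2 the immunoglobulin share was in the aged range (19.2% of reads), Cd52 was above every aged library, and the other 10 pan-leukocyte markers were below every aged library.

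A second pattern was strongest in aged control replicates 1 and 2. Ptgs2, the inducible cyclooxygenase that makes prostaglandin H2, had 1.72, 0.96 and 1.36 FPKM in young controls, 45.3, 114 and 7.01 in aged controls and 0.58, 1.18 and 4.58 in labelled-knockout libraries. All aged libraries were above all others, but they spanned a ratio of 16.2 from lowest to highest. The log2 fold change of Ptgs2 with age was 3.91 (SE 0.85, 95% interval 2.00 to 5.82, limma adjusted p = 0.0397). Labelled-knockout libraries had a log2 fold change of −3.70 (SE 0.85, limma adjusted p = 0.0491) against aged controls. Without aged control replicate 3 the log2 fold changes were 4.97 and −4.77, and without replicate 2 the rise with age did not pass (log2 fold change 3.05). The rise was lost without any young library or aged control replicates 1 or 2 (limma adjusted p of 0.0869 to 0.238). The lower level in labelled-knockout libraries held only without aged control replicate 3 or labelled-knockout replicate 2, and was lost without each of the others (0.0650 to 0.249).

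Fosl1, Dusp5, Ier2 and Ier3 had the same order of aged libraries, with replicate 2 highest and replicate 3 lowest. That order alone is common: 25 of the 37 genes had it (67.6%), and so did 44.7% of all tested genes. Fosl1, the Fos-related partner of Jun that is known as a target of ERK, was at 27.5, 38.5 and 2.87 FPKM in aged controls, against 0.99 to 1.61 in young controls and 0.06 to 2.72 in labelled-knockout libraries. Dusp5 was at 182, 259 and 48.6 FPKM in aged controls, against 41.5, 22.2 and 16.6 and 48.9, 44.1 and 48.2. Both had every aged library above the young libraries. Ier3, a short-lived protein linked to survival under NF-kB, was at 731, 1429 and 141 FPKM in aged controls, and Ier2 at 1188, 1289 and 298. For these 2 genes aged replicate 3 was below every young library, while replicates 1 and 2 were above all 7 other libraries. The differences did not pass for Fosl1 (log2 fold change 2.82, SE 0.79, limma adjusted p = 0.0846 with age, log2 fold change −2.97, SE 0.79, limma adjusted p = 0.0814 against aged controls) or Dusp5 (log2 fold change 2.36, SE 0.57, limma adjusted p = 0.0523 and log2 fold change −1.47, SE 0.57, limma adjusted p = 0.193). Nor did they for Ier3 or Ier2. Without aged control replicate 3, Fosl1, Dusp5, Ier2, Ier3 and Ptgs2 all rose with age, beside 2.68% of all tested genes, and were all lower in labelled-knockout libraries, beside 2.57%. The genes were grouped here by their low level in that same library, so these calls are no further support. Fosl1 shares 1163 exon bases with Ccdc85b and Dusp5 shares 547 with an antisense gene, which unstranded counting could not separate.

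**Figure D4:**
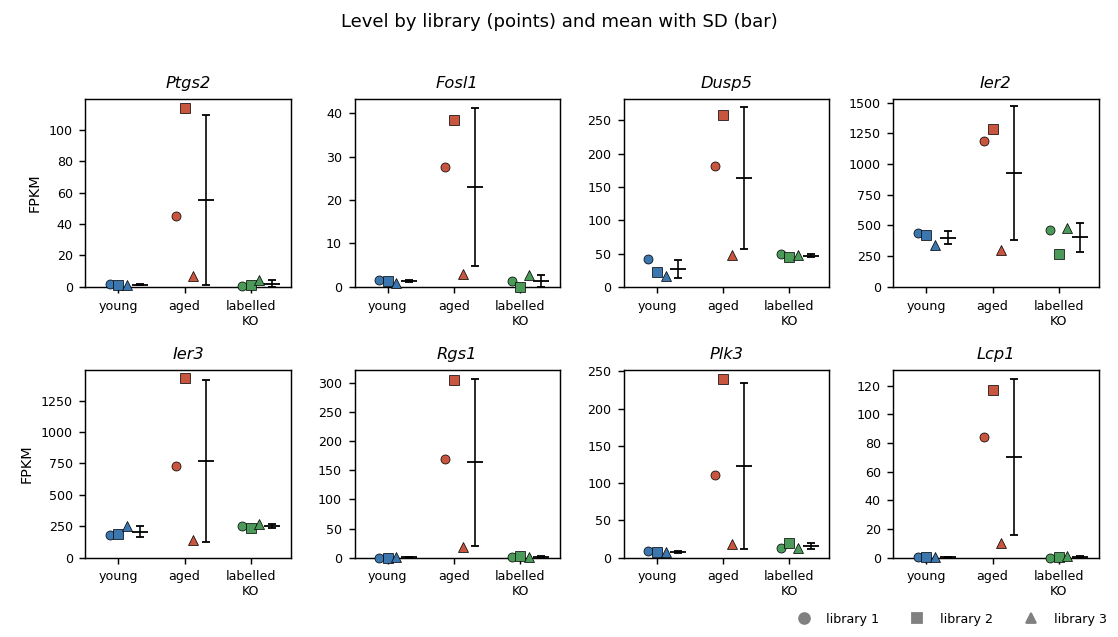
FPKM (vertical axes, from 0) of 5 genes of the set (Ptgs2, Fosl1, Dusp5, Ier2, Ier3), of 2 further early response genes (Rgs1, Plk3) and of the leukocyte marker Lcp1; marker shape gives the replicate number, and the bar gives mean ± SD of 3 libraries. In all 8 panels aged control replicate 2 is highest, replicate 1 next and replicate 3 lowest of the aged libraries.

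Of 11 pan-leukocyte markers, 10 stood in the same order in the aged libraries, and the exception was Cd52. Their sum was 936, 1159 and 189 FPKM in aged control replicates 1, 2 and 3 without Cd52, and 1379, 1271 and 606 with it. The sums of 6 T and NK markers (15.35, 25.9 and 4.47) and 7 endothelial markers (10.4, 13.2 and 2.64) had that order too, while 11 monocyte and macrophage markers summed to 613, 127 and 962. Gene by gene, only 1 of the 6 T and NK markers (16.7%) and 4 of the 7 endothelial markers (57.1%) had the order. So did 4 of the 11 monocyte and macrophage markers (36.4%) and 44.7% of all tested genes. Lcp1, an actin-bundling protein of blood cells, was at 83.9, 117 and 10.6 FPKM in aged controls and at most 1.21 FPKM elsewhere. Nkg7, a granule protein of cytotoxic lymphocytes, was at 14.2, 25.2 and 4.31 FPKM in aged controls and at most 0.10 elsewhere, while Cd3e, Cd3d, Cd2 and Klrb1c were under 1 FPKM in every library and Gzma at 0. Pecam1 was at 9.34, 11.6 and 2.07 FPKM, but the endothelial markers Kdr, Tek and Flt1 were under 1 FPKM everywhere and Cdh5, which encodes VE-cadherin, reached 1.99 FPKM in 1 library only. The immunoglobulin share had another order, 21.6%, 4.27% and 31.9%. The part of leukocytes in the levels of Ptgs2, Fosl1, Dusp5, Ier2 and Ier3 was not tested.

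The 2 remaining effector genes did not pass. Rhob, a stress-induced small GTPase, was at 121 ± 15.4, 88.6 ± 18.1 and 178 ± 120.3 FPKM, with 316 FPKM in labelled-knockout replicate 2. Arc, known from synapses, was at 1.40 to 8.34 FPKM over all libraries. Ier5, a co-factor of the heat shock factor, was at 55.5 to 135 FPKM and also did not pass.

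Labelled-knockout libraries were last compared with young controls, which asks whether the 2 groups that both differed from aged controls also differed from each other. Of the 37 genes, 0 passed in either direction by limma, beside 0.00834% of all tested genes called higher and 0.0167% called lower. At an unadjusted p under 0.05 there were 4 (Atf3, Nr4a1, Nr4a2 and Csrnp1), beside 8.63% of all tested genes. The median log2 fold change was 0.07 over the 37 genes and −0.16 over all tested genes. Libraries did not overlap for 7 genes higher, beside 4.08%, and 2 lower, beside 13.4%. Atf3 was among the higher ones, at 148 to 236 FPKM against 86.2 to 142 (log2 fold change 0.78, SE 0.27, limma adjusted p = 0.483, 95% interval 0.17 to 1.39), as was Nr4a1, at 279.8 to 471 FPKM against 138 to 214 (log2 fold change 1.03, SE 0.34, limma adjusted p = 0.464, 95% interval 0.26 to 1.80). A p above the threshold does not show that the groups were alike. Of 20 alternatives, only the weighting of libraries by quality changed these counts, with 5 genes higher (Fosl2, Atf3, Nr4a2, Btg2 and Csrnp1), beside 5.21% of all tested genes.

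Other genes of the same response moved in part with the 38. Of 35 tested genes in a list of other immediate early and early response genes, 2 rose with age (Rgs1 and Mcl1) and 3 fell (Gem, Plk2 and Amotl2), with a median of −0.45. Of all tested genes 2.57% rose and 1.47% fell, with a median of −0.28. Against aged controls, 6 were higher in labelled-knockout libraries (Gem, Gdf15, Hbegf, Ier5l, Phlda1 and Plk2) and Rgs1 was lower, with a median of 0.58. Of all tested genes 1.52% were higher and 1.96% lower, with a median of 0.07. Gem, a small GTPase that restrains calcium channels, had 35.3, 28.8 and 33.7 FPKM in young controls, 12.7, 10.5 and 10.6 in aged controls and 39.0, 30.8 and 48.5 in labelled-knockout libraries, the order of Atf3. It gave a log2 fold change of −1.45 (SE 0.22, limma adjusted p = 0.0142) with age and a log2 fold change of 1.70 (SE 0.22, limma adjusted p = 0.00954) against aged controls. Gdf15, a stress-induced cytokine, was at 3.58, 5.37 and 3.94 FPKM in aged controls and 12.6 to 15.7 in labelled-knockout libraries (log2 fold change 1.48, SE 0.26, limma adjusted p = 0.0241). Rgs1, a brake on G protein signalling that is typical of lymphocytes, was at 169, 304 and 17.6 FPKM in aged controls and at most 2.20 elsewhere, the order of Ptgs2 (log2 fold change 6.14, SE 0.86, limma adjusted p = 0.0107 with age, log2 fold change −5.42, SE 0.86, limma adjusted p = 0.0212 against aged controls).

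In 14 tested heat shock response genes, Bag3, a co-chaperone of Hsp70, was the single call in each comparison, from 16.0, 13.9 and 17.0 FPKM in young to 6.47, 8.57 and 7.80 in aged controls and 21.7, 17.4 and 22.2 in labelled-knockout libraries (log2 fold change −0.95, SE 0.21, limma adjusted p = 0.039, then log2 fold change 1.31, SE 0.21, limma adjusted p = 0.0194). Of all tested genes, 1.47% fell with age and 1.52% were higher against aged controls. In this list the next smallest p-values against aged controls were those of Hspa1a (log2 fold change 1.31, SE 0.31, limma adjusted p = 0.0521) and Hspb1 (log2 fold change 1.21, SE 0.31, limma adjusted p = 0.0704). Of 15 NF-kB response genes, Cxcl2 and Tnfaip3 rose with age, Ccl2 fell, and Ccl2 was higher in labelled-knockout libraries. The shares of all tested genes were 2.57%, 1.47% and 1.52% in the same order. Ccl2, a monocyte chemokine of stroma, was at 46.5, 96.2 and 52.6 FPKM in aged controls, below 149 to 372 in the other libraries (log2 fold change 1.92, SE 0.40, limma adjusted p = 0.0353 against aged controls). Tnfaip3, an inhibitor of NF-kB, was at 217, 366 and 27.1 FPKM in aged controls and 6.69 to 13.2 elsewhere, the order of Ptgs2 (log2 fold change −3.28, SE 0.78, limma adjusted p = 0.0544 against aged controls). The third by p was Cxcl1 (log2 fold change 1.33, SE 0.34, limma adjusted p = 0.0674).

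Upstream, 1 of 31 tested kinases and transcription factors passed: Rps6ka1, the ERK-activated kinase RSK1, was at 37.4, 58.7 and 7.23 FPKM in aged controls and at most 4.24 elsewhere (log2 fold change 3.94, SE 0.67, limma adjusted p = 0.0196 with age, log2 fold change −3.16, SE 0.67, limma adjusted p = 0.0382 against aged controls). Of all tested genes, 2.57% rose with age and 1.96% were lower against aged controls. Srf, the factor of the CArG box, was at 2.08 to 9.09 FPKM over all libraries. Among bZIP partners of AP-1, Cebpd had the smallest p against aged controls (log2 fold change 1.09, SE 0.31, limma adjusted p = 0.0959) and did not pass. None of 13 other MAPK feedback genes, 11 proteins of AU-rich RNA decay and 10 integrated stress response genes passed in any comparison by limma. In these 3 lists the smallest p-values against aged controls belonged to Dusp10, Zfp36l1 and Atf4. Atf4, which drives Atf3 in the integrated stress response, had 147, 138 and 189 FPKM in young controls, 115, 117 and 94.2 in aged controls and 152, 199 and 172 in labelled-knockout libraries. Among nuclear RNAs, Snhg11 was at 3.53, 6.14 and 5.07 FPKM in aged controls and at most 1.76 elsewhere, and passed in both comparisons (log2 fold change 1.95, SE 0.32, limma adjusted p = 0.0172 with age, log2 fold change −1.68, SE 0.32, limma adjusted p = 0.029 against aged controls). Outside aged controls, Snhg11 reached 1 FPKM in labelled-knockout replicate 2 alone. It met the filter only through the group where it was high, so no conclusion is drawn from these calls. Malat1 (young, aged and labelled-knockout means of 1585 ± 640, 1014 ± 47.4 and 985 ± 57.6 FPKM) did not pass. Neither did Neat1 (4.33 ± 0.59, 14.0 ± 7.02 and 5.88 ± 0.69).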

How the data were processed

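RNA sequencing covered 9 libraries, grouped by their titles, which also matched the columns of the table. The deposited table holds FPKM per gene, per the file headers, rounded to 2 decimals. Software named in the submitters' processing notes, with no roles, was STAR, edgeR and FastQC 0.11.5, and the build was mm10 (GRCm38). The counter, its strand setting and the annotation were not given in the sources used here.

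Values were taken as log2(FPKM + 1) and tested by limma 3.58.1 (R 4.3.3) with its intensity trend. Genes entered with 1 FPKM or more in 3 or more libraries. The fit of group means used all 9 libraries, with 6 residual degrees of freedom, and Benjamini-Hochberg adjustment ran over 11988 genes. Changes of low genes are understated on this scale. Depth was estimated from the step between low FPKM values times gene length: 99.1% to 100% of low values at short genes were whole reads within 0.1. At these depths 3 reads in a gene of 2 kb came to 0.0544 to 0.0851 FPKM, for counting error only. Gene models came from GENCODE M21 and promoters from RefSeq, both on GRCm38. The procedure was also run on simulated data, in which each gene had the same spread in all libraries and no library stood apart. That setting differs from these data, so it does not bear on calls that change with single libraries. Python 3.11.15 was used for descriptions and figures.

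The 38 genes, the other gene and marker lists and the tests were chosen with earlier results of these data known. Genes named with all values are those that passed in a comparison, with Fos, Jun, Egr1, Myc and Ptgs2. Of each other list with a gene that passed, up to 3 genes with the smallest p against aged controls are named, and otherwise 1. Names beyond this rule (Fosb, Fosl1, Maff, Dusp5, Ier2, Ier3, Nr4a1, Nr4a2, Csrnp1 and markers) were chosen after their values were seen. In 20 alternatives, the filter was dropped or raised to 5 FPKM, and the pseudocount was set to 0.1. Scaling was changed to median ratios (also without labelled-knockout replicate 2), to quantiles, or by leaving out immunoglobulin genes. The model was refitted with array weights, with no trend, with a block for replicate number, on the compared groups alone, or without each of 9 libraries. No count-based test was run, since the values are not counts. The result of 1 listed gene is not reported here.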

Additional observations from a re-analysis of the deposited data

How the results depend on the processing

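Counts of the 37 genes depended on the processing, and the cause was not tested beyond what each alternative changes. With age, the 1 gene higher and 6 lower became 0 and 2 without a filter, 4 and 3 under quantile normalization, 7 and 16 with array weights, and 0 and 1 with the replicate block. Of all tested genes, these settings called 0.445% and 0.163%, 2.92% and 1.30%, 13.5% and 48.4%, and 0.851% and 0.150% in the same order. The number higher was 2 with a minimum of 5 FPKM, 3 with median-ratio rescaling or with immunoglobulin genes left out, 4 with only the compared groups, and 4 with rescaling and labelled-knockout replicate 2 left out. In that order, 2.33%, 3.00%, 2.78%, 4.74% and 7.02% of all tested genes were higher. With only the compared groups, 9 of the 37 were lower, beside 14.0% of all tested genes. Leaving out 1 library gave 0 to 5 higher and 0 to 10 lower. The 5 higher, without aged control replicate 3, stood beside 2.68% of all tested genes. The 10 lower, without labelled-knockout replicate 2, stood beside 17.9%. In labelled-knockout against aged libraries, the 6 higher and 1 lower became 2 and 0 without a filter, 3 and 0 with a minimum of 5 FPKM, 17 and 5 with array weights, 1 and 0 with only the compared groups, and 1 and 0 with the replicate block. Of all tested genes, the same settings called 0.141% and 0.264%, 1.67% and 1.10%, 39.2% and 13.7%, 0.0436% and 0.0786%, and 0.217% and 0.317%. A pseudocount of 0.1 left 0 lower. Leaving out 1 library gave 1 to 10 higher and 0 to 5 lower, with fewer degrees of freedom in each such fit. The 10 higher, without labelled-knockout replicate 2, stood beside 11.5% of all tested genes. The 5 lower, without aged control replicate 3, stood beside 2.57%. Against young controls, array weights gave 5 higher, beside 5.21% of all tested genes. Array weights called 48.4% of all tested genes lower with age, beside 43.2% of the 37. Against aged controls, array weights called 39.2% of all tested genes higher and 13.7% lower, beside 45.9% and 13.5% of the 37.

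Jun, close to 0 in both comparisons, changed sign. With age it was 0.33 with median-ratio rescaling, 0.33 with immunoglobulin genes left out, 0.33 with rescaling and labelled-knockout replicate 2 left out, and −0.24 to 0.26 without 1 library. Against aged controls it was −0.11 with array weights, −0.15 with rescaling and labelled-knockout replicate 2 left out, and −0.11 to 0.38 without 1 library (lowest without aged control replicate 3). The called genes kept their sign in all 20 alternatives.

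The replicate block left Atf3 as the single call in both comparisons. Same-numbered libraries of different groups correlated in their deviations from group means at −0.29 to 0.30 over 9 pairs. Deviations from a mean of 3 libraries depend on each other, so these values cannot settle whether the numbers mark a pairing. Depth did not limit the abundant genes, but Dusp2 and Fosl1 rested on few reads in some libraries (2.21 for Fosl1 in labelled-knockout replicate 2).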
